A study of Mus musculus with 5 samples.

Results

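The cardiac myosin heavy and light chains were followed through 5 RNA-seq libraries from hearts of newborn mice that carry or lack the long noncoding RNA Charme. The 7 genes were chosen by name, as the genes of the sarcomeric myosins made by heart muscle, by a rule that uses no measured value, though with earlier results of these data known: the heavy chains Myh6, Myh7 and Myh7b, and the light chains Myl2, Myl3, Myl4 and Myl7. They are 7 of the 49671 genes in the count table, and all 7 were among the 14880 genes with enough counts to be tested. Each library was made from poly(A) RNA of pooled hearts of C57BL6/J littermates at postnatal day 2. CharmeWT hearts were sequenced as 3 pools of 9 hearts each, and CharmeKO hearts, whose Charme locus holds an inserted polyadenylation signal, as 2 pools of 3 hearts each. Hearts of males and females were taken at random, so that the sex of each pool is not given. The pools of a genotype are the replicates. Pool size (9 or 3 hearts) and genotype go together, so their parts in any difference cannot be told apart. The p-values below measure the spread between these 5 pools.

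Sarcomeric myosin is the motor of the thick filament: a pair of heavy chains carries the ATPase and the rod, and each heavy chain binds an essential and a regulatory light chain at its lever arm. In the mouse heart, Myh6 encodes the fast alpha heavy chain, which takes over in the ventricle around birth, and Myh7 encodes the slower beta heavy chain of the fetal ventricle and of slow skeletal muscle. Myh7b encodes a further, more distantly related heavy chain that is made at low levels. Among the light chains, Myl2 (regulatory) and Myl3 (essential) belong to ventricular myosin, while Myl7 (regulatory) and Myl4 (essential) belong to atrial myosin and to the early embryonic heart, and Myl4 is also made in developing skeletal muscle.

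Each heavy chain gene carries an intronic microRNA, and these are shown because they mark where the 3 genes differ and what this assay does not measure. The mature sequences, from RefSeq on GRCm38.p6, are written with the seed (bases 2 to 8) in capitals. miR-208a-3p lies in intron 29 of Myh6 (chr14:54949072-54949093, minus strand), miR-208b-3p in intron 31 of Myh7 (chr14:54975710-54975731, minus strand) and miR-499-5p in intron 19 of Myh7b (chr2:155622893-155622913, plus strand).
miR-208a-3p: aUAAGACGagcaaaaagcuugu
miR-208b-3p: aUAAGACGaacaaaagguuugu
miR-499-5p: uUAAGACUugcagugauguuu
miR-208a-3p and miR-208b-3p share the whole seed and differ, counted from the 5′ end of miR-208a-3p, by G10A, A16G and C18U. The seed of miR-499-5p shares its first 6 bases with theirs and differs in the last base. Poly(A) libraries do not measure mature microRNAs, and the counts over these hairpins were near 0: 20, 3 and 0 fragments for Mir208a in CharmeWT pools 1 to 3 and 12 and 7 in CharmeKO pools 1 and 2, at most 1 fragment for Mir208b and at most 3 for Mir499 in any pool.

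The coding sequences of Myh6 and Myh7 were compared because fragments that map equally well to both genes are not counted for either by the counting mode that was used. Over 5800 aligned positions they were identical at 5322, or 91.8%. Their longest identical run, 245 bases in the part that encodes the rod, spans coding positions 4246 to 4490 of Myh6 and 4240 to 4484 of Myh7.
Myh6 and Myh7 shared run: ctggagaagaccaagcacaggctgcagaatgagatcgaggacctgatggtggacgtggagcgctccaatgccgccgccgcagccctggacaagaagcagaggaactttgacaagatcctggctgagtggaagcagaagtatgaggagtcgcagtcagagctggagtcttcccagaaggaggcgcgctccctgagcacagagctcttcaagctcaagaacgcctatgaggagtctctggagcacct
Of all stretches of 150 bases, the length of a read, in the principal Myh6 mRNA, 5.53% were also present in Myh7, against 11.4% of stretches of 100 bases and 22.6% of stretches of 50 bases. Myh7b was 72.8% identical to Myh6 and 73.1% to Myh7 in coding sequence, Myl4 was 78.1% identical to Myl3 and Myl7 was 64.5% identical to Myl2, and none of these 4 pairs shared a stretch of 50 bases.

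The windows of 250 bases upstream of Myl4 (chr11:104550413-104550662, plus strand) and Myl7 (chr11:5898783-5899032, minus strand), from RefSeq on GRCm38.p6, are shown because these are the light chains of atrial myosin and the results below turn on them. Capitals mark a match on either strand to AGATAA, which is bound by factors of the GATA family, to CATTCC, the MCAT element of TEAD factors, to AGGTGT, bound by T-box factors, to TATAAA, the core of the so-called TATA box, or to AGGTCA, bound by nuclear receptors.
Myl4 upstream: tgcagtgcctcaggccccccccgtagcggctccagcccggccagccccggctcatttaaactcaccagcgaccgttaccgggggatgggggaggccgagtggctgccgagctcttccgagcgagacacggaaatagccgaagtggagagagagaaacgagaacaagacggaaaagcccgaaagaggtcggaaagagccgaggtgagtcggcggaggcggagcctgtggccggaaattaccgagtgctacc
Myl7 upstream: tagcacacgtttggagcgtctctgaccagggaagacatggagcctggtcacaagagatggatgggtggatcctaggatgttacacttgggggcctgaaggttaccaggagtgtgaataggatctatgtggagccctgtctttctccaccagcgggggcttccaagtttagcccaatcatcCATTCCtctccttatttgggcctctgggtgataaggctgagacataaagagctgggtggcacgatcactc
None of these letters was in the Myl4 window, and the Myl7 window held 1 CATTCC, 70 bases before the start. Of 32851 upstream windows of this length, 9.99% held the GATA letters, 12.6% the MCAT element, 11.8% the T-box letters, 12.4% the TATA box and 14.0% the nuclear receptor letters.

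Total counts on genes ran from 16721055 to 21646378 per pool, and the 7 myosin genes took between 3.40% and 3.84% of them in CharmeWT pools and 2.98% and 3.55% in CharmeKO pools. Charme itself had 810, 183 and 276 counts in CharmeWT pools 1 to 3 and 57 and 79 in CharmeKO pools 1 and 2. Both CharmeKO libraries stood apart from the rest in other ways too. In CharmeKO pool 1, mitochondrially encoded genes took 21.1% of counts, against 9.68% to 11.1% in the other 4 pools. Bpifa2, a gene of the salivary gland, had 0 counts in every CharmeWT pool, 2170 in CharmeKO pool 1 and 266768 in CharmeKO pool 2. Values with a pool left out are therefore given beside the results that it moves most.

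Levels are given as FPKM, fragments per kilobase of annotated exons scaled to library size, which were computed from the counts and can be compared between genes. In CharmeWT hearts the order was Myl2 at 4205 ± 622 FPKM (SD, n = 3, as for the other CharmeWT means), Myh6 at 2324 ± 237, Myl3 at 2308 ± 301, Myh7 at 638 ± 239, Myl7 at 499 ± 161, Myl4 at 100.3 ± 7.54 and Myh7b at 12.3 ± 5.86. The ranges of Myh6 and Myl3 overlapped, as did those of Myh7 and Myl7, while the other neighbours in this order were separate in all 3 pools. Myl2, the ventricular regulatory light chain, was the most abundant of the 7 in each of the 5 pools, and Myh7b the least. In CharmeKO hearts Myl3 (2009 ± 103, SD, n = 2) stood above Myh6 (1476 ± 545), and the ranges of Myh7 (1024 ± 68.8) and Myl7 (911 ± 259) overlapped. The order depends on the length that levels are divided by. Annotated exons of Myl4 add up to 4637 bases and its principal transcript to 879. For Myl2 these lengths are 1950 and 662 bases, and for Myl3 2044 and 937. Divided by principal transcript, Myl3 stood above Myh6 in CharmeWT hearts too, at 5035 ± 657 against 2557 ± 261, with separate ranges. Per kilobase of principal transcript Myl4 was at 529 ± 39.8 in CharmeWT hearts and at 1221 ± 56.3 in CharmeKO hearts, next to Myl7 at 499 ± 161 and 911 ± 259, whose annotated exons and principal transcript are both 590 bases long.

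**Figure D1:**
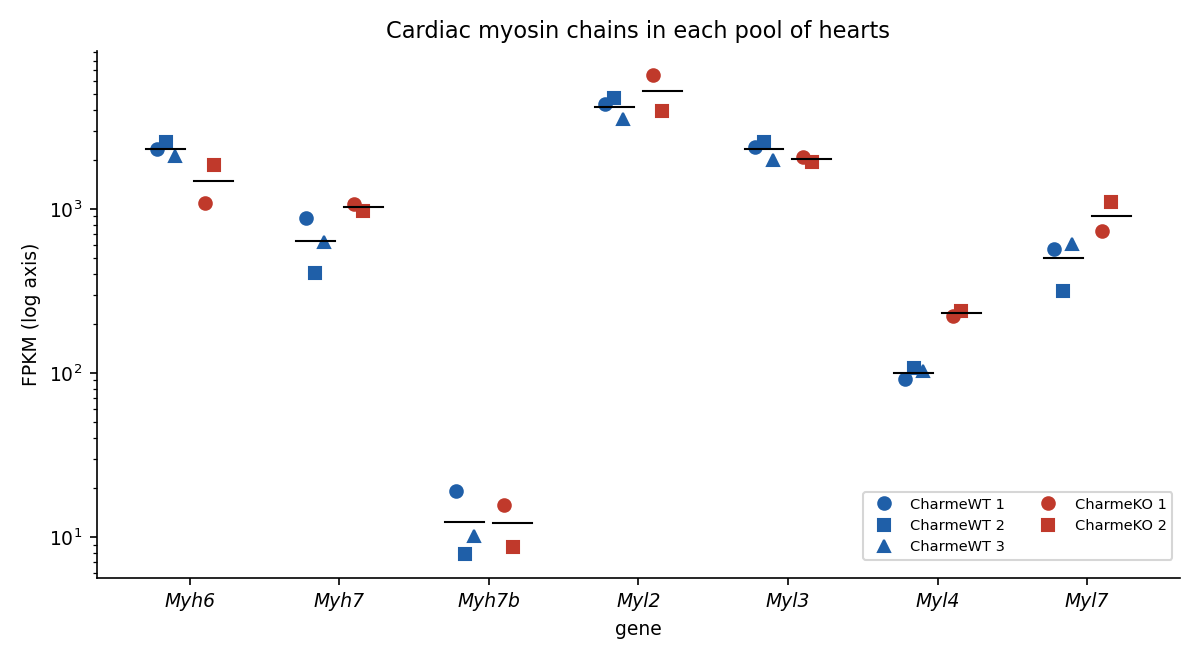
FPKM of the 7 myosin genes on a log axis, with a symbol for each of the 5 pools (blue for CharmeWT, red for CharmeKO) and a bar at each genotype's mean. Myl4 is the gene whose CharmeKO points, 224 and 239 FPKM, sit farthest above its CharmeWT points of 91.9 to 106 FPKM, relative to their spread.

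Of the 7 genes, 1 was called as differing between the genotypes at an adjusted p under 0.1: Myl4, which was higher in CharmeKO hearts. Among all 14880 genes tested, 1.53% were called higher and 0.524% lower by the same edgeR quasi-likelihood test, 227 and 78 genes; with libraries scaled on heart muscle genes these numbers were 205 and 6. Both CharmeKO pools lay above every CharmeWT pool for 3 of the 7 genes (Myh7, Myl4 and Myl7), against 17.8% of all genes, and below every CharmeWT pool for 1 (Myh6), against 18.2%. The pools overlapped for Myh7b, Myl2 and Myl3. The median log2 fold change (CharmeKO over CharmeWT) of the 7 genes was 0.32, beside 0.023 for all genes tested. Of the 7, 2 had an unadjusted p under 0.05, as had 18.6% of all genes. The likelihood ratio test of edgeR, which called 6.27% of all genes, called 2 of the 7 (Myl4 and Myl7), and DESeq2, which called 7.54%, called 3 (Myl4, Myl7 and Myh6). Fits without CharmeKO pool 1 or 2 keep 1 CharmeKO pool, so that their spread comes from the CharmeWT pools only. Log2 fold changes alone are given for those fits.

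Myh6 (ENSMUSG00000040752, chr14:54941921-54966927, minus strand), the alpha heavy chain, was at 2321, 2563 and 2088 FPKM in CharmeWT pools 1 to 3 and at 1091 and 1862 FPKM in CharmeKO pools 1 and 2. Both CharmeKO pools were below all CharmeWT pools, but CharmeKO pool 2 was much closer to them than CharmeKO pool 1. The log2 fold change was -0.65 (standard error 0.384) and did not pass the test (edgeR adjusted p = 0.378). It was -0.32 without CharmeKO pool 1 and -1.10 without CharmeKO pool 2. CharmeKO pool 1 is the pool with the high mitochondrial share, and the part of that share in the level of Myh6 was not tested. With the mitochondrially encoded genes left out before scaling, the log2 fold change of Myh6 was -0.66.

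Myh7 (ENSMUSG00000053093, chr14:54970684-54994626, minus strand), the beta heavy chain, lies beside Myh6 on the same strand. It was at 882, 404 and 628 FPKM in CharmeWT pools and at 1073 and 975 FPKM in CharmeKO pools. The CharmeKO pools were close to each other and above all CharmeWT pools, which themselves differed 2.18-fold from lowest to highest. The log2 fold change was 0.68 (standard error 0.360) and did not pass the test (edgeR adjusted p = 0.335). It ranged from 0.44 without CharmeWT pool 2, the lowest, to 0.99 without CharmeWT pool 1, the highest, and passed in neither case.

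Myh7b (ENSMUSG00000074652, chr2:155611212-155634307, plus strand) was at 19.0, 7.89 and 10.2 FPKM in CharmeWT pools and at 15.7 and 8.63 FPKM in CharmeKO pools. In each genotype pool 1 was the highest, and the genotypes overlapped. Its log2 fold change of -0.024 (standard error 0.362, edgeR adjusted p = 0.978) changed sign with the scaling of the libraries, to 0.032 when they were scaled on heart muscle genes.

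Myl4 (ENSMUSG00000061086, chr11:104550663-104595753, plus strand), the atrial and embryonic essential light chain, was at 91.9, 106 and 102 FPKM in CharmeWT pools and at 224 and 239 FPKM in CharmeKO pools. The genotypes did not overlap, and the spread within each was small, with a coefficient of variation of 7.53% in CharmeWT and 4.61% in CharmeKO pools. Counts behind these levels were 8782, 8734 and 9399 in CharmeWT pools and 14674 and 24754 in CharmeKO pools. The rise was 2.31-fold, a log2 fold change of 1.21 (standard error 0.184), and it passed the test (edgeR adjusted p = 0.0343). The size of the difference held when any pool was left out, between 1.15 and 1.26, whereas the call was lost without CharmeWT pool 1 (edgeR adjusted p = 0.167) or CharmeWT pool 3 (edgeR adjusted p = 0.274). Without those pools the same test called 2 and 0 of all genes, with 2190 and 1315 genes at an unadjusted p under 0.05. Without CharmeKO pool 1 or 2 the log2 fold change of Myl4 was 1.26 and 1.15.

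Myl3 (ENSMUSG00000059741, chr9:110741861-110769798, plus strand), the essential light chain of the ventricle and of slow skeletal muscle, was at 2369.9, 2574 and 1981 FPKM in CharmeWT pools and at 2081 and 1936 FPKM in CharmeKO pools. CharmeKO pool 1 lay within the CharmeWT range and CharmeKO pool 2 just below it. The log2 fold change was -0.20 (standard error 0.270, edgeR adjusted p = 0.708).

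Myl7 (ENSMUSG00000020469, chr11:5896637-5898782, minus strand), the atrial regulatory light chain, was at 572, 314 and 611 FPKM in CharmeWT pools and at 729 and 1094 FPKM in CharmeKO pools. The CharmeKO pools were both above all CharmeWT pools, and CharmeWT pool 2 was the lowest of the 5. The log2 fold change of 0.87 (standard error 0.289) did not pass the quasi-likelihood test (edgeR adjusted p = 0.180), while it passed in the likelihood ratio test of edgeR (adjusted p = 0.0902) and in DESeq2 (adjusted p = 0.0524). It was 1.13 without CharmeKO pool 1 and 0.54 without CharmeKO pool 2.

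Myl2 (ENSMUSG00000013936, chr5:122100951-122113472, plus strand), the ventricular regulatory light chain, was at 4390.5, 4714 and 3512 FPKM in CharmeWT pools and at 6577 and 3938 FPKM in CharmeKO pools. CharmeKO pool 1 was above every other pool, and CharmeKO pool 2 lay within the CharmeWT range. The log2 fold change of 0.32 (standard error 0.349, edgeR adjusted p = 0.638) turned to -0.094 without CharmeKO pool 1.

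**Figure D2:**
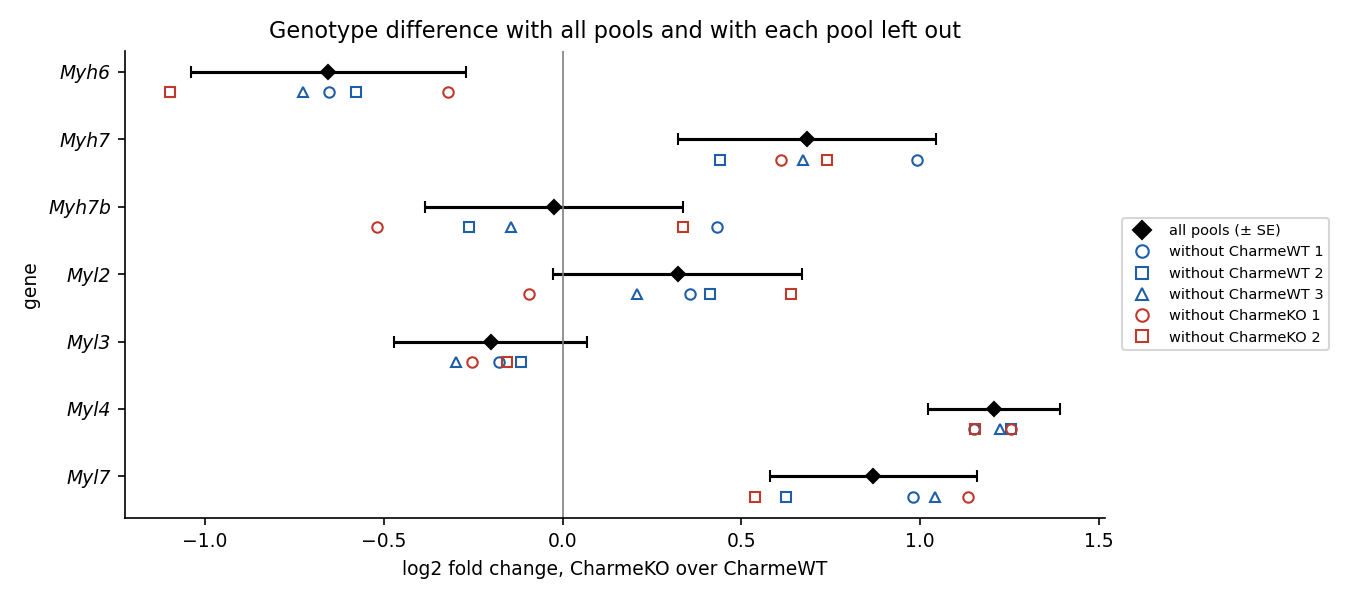
Log2 fold change (CharmeKO over CharmeWT) of each myosin gene from all 5 pools (black diamonds, with the standard error as a bar) and with each pool left out (open symbols). The open symbols of Myl4 stay between 1.15 and 1.26, while those of Myh6 run from -1.10 to -0.32 and those of Myh7b and Myl2 lie on both sides of 0.

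Shares within a pool do not depend on the scaling of libraries and show which isoform prevailed. The 5 pools can be assigned to groups of 3 and 2 in 10 ways, so that the smallest p of an exact permutation test is 0.1 and no share could pass 0.05. Myh6 made up 72.5%, 86.4% and 76.9% of the summed FPKM of Myh6 and Myh7 in CharmeWT pools and 50.4% and 65.6% in CharmeKO pools. The alpha heavy chain was thus the larger part of this sum in all 5 pools on this length, while CharmeKO pool 1 was close to equal parts, and at 44.4% when levels were taken per kilobase of principal transcript. The CharmeKO mean was lower by 20.5 percentage points (58.0% ± 10.7, n = 2, against 78.6% ± 7.11, n = 3; exact two-sided permutation p = 0.1, 0.3 after adjustment over 6 measures). Without CharmeKO pool 1 the difference was -13.0 percentage points, and without CharmeKO pool 2 it was -28.1. Myh7b made up 0.265% to 0.720% of the 3 heavy chains (exact permutation p = 0.6).

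Among the essential light chains, Myl4 made up 3.73%, 3.97% and 4.92% of Myl3 and Myl4 in CharmeWT pools and 9.71% and 11.0% in CharmeKO pools. Both CharmeKO pools were above all CharmeWT pools, with a mean difference of 6.15 percentage points (exact two-sided permutation p = 0.1, 0.3 after adjustment over the 6). The log2 ratio of Myl4 to Myl3, whose difference between genotypes does not depend on gene length, was higher by 1.40 (exact permutation p = 0.1). Among the regulatory light chains, Myl7 made up 11.5%, 6.25% and 14.8% of Myl2 and Myl7 in CharmeWT pools and 9.97% and 21.7% in CharmeKO pools. Per kilobase of principal transcript these shares were lower, at 4.23%, 2.21% and 5.57% in CharmeWT pools and 3.62% and 8.62% in CharmeKO pools. Here the genotypes overlapped, since CharmeKO pool 1 had both more Myl7 and more Myl2 than the CharmeWT pools (exact permutation p = 0.5). The mean difference was -0.89 percentage points without CharmeKO pool 2 and 10.9 points without CharmeKO pool 1.

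The 2 atrial chains Myl4 and Myl7 together made up 8.94%, 5.46% and 11.5% of the 4 light chains in CharmeWT pools and 9.91% and 18.5% in CharmeKO pools, which overlapped (exact permutation p = 0.3). This overlap depends on the length used: per kilobase of principal transcript the shares were 5.51%, 4.30% and 7.28% in CharmeWT pools and 7.40% and 13.0% in CharmeKO pools, and both CharmeKO pools were above all CharmeWT pools (exact permutation p = 0.1), as they were on raw counts (4.49% to 7.12% against 7.92% and 13.1%). On all annotated exons, the mean difference of 5.58 percentage points was 1.28 without CharmeKO pool 2 and 9.87 without CharmeKO pool 1. The log2 ratio of the 4 light chains to the 3 heavy chains was 1.20, 1.37 and 1.19 in CharmeWT pools, and 2.14 and 1.34 in CharmeKO pools (exact permutation p = 0.2). CharmeKO pool 1 alone stood apart there, and without it the difference of the means was 0.086. For the shares of Myh6, Myl4 and Myl7 in their pairs, taken as shares of counts, the widest 95% Wilson interval of any pool was 0.569 percentage points wide.

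**Figure D3:**
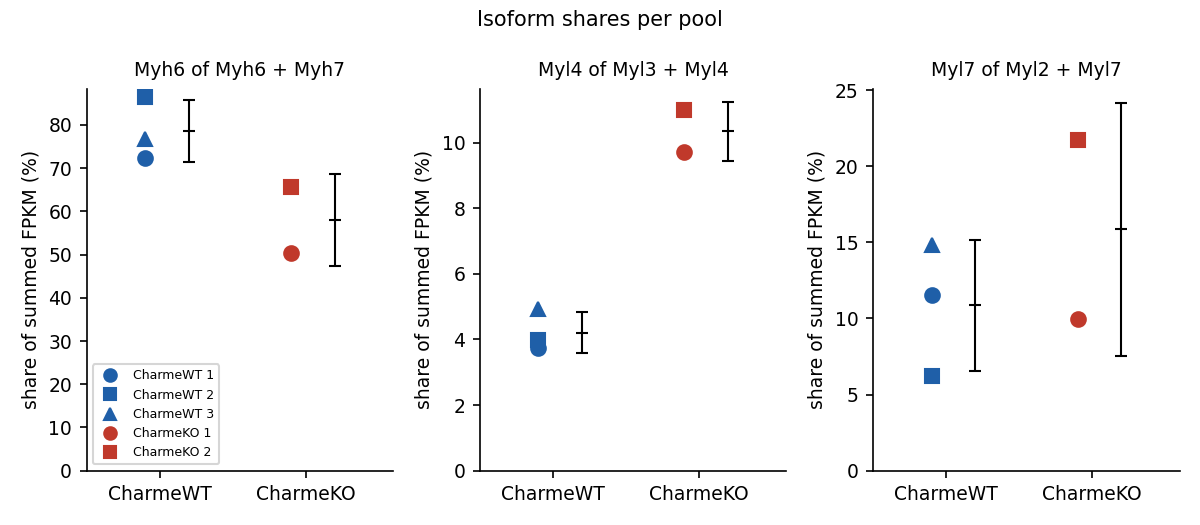
Share of Myh6 in Myh6 plus Myh7, of Myl4 in Myl3 plus Myl4 and of Myl7 in Myl2 plus Myl7, in percent of summed FPKM, with a symbol per pool and the mean ± SD of each genotype beside the points (n = 3 and n = 2). The genotypes are separate for Myh6 (72.5% to 86.4% against 50.4% and 65.6%) and Myl4 (3.73% to 4.92% against 9.71% and 11.0%) and overlap for Myl7.

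In pooled tissue, fewer cells of a type and less RNA per cell cannot be told apart, so each myosin gene was also set against 20 other genes of heart muscle cells (such as Actc1, Tnnc1 and Mb). The geometric mean of these 20 genes was 1334, 1347 and 1204 CPM (counts scaled to library size) in CharmeWT pools and 1471 and 1075 CPM in CharmeKO pools. Of the 20 genes, 1 was called, the calcium channel gene Cacna1c, which fell by 0.79 on the log2 scale (edgeR adjusted p = 0.0958), where 0.524% of all genes fell. The likelihood ratio test of edgeR called 3, all lower, and DESeq2 called 5, 1 higher and 4 lower. These tests called 6.27% and 7.54% of all genes. None of the 20 lay above and 6 below every CharmeWT pool in both CharmeKO pools, against 17.8% and 18.2% of all genes. The median log2 fold change was 0.029. Relative to the geometric mean of the 20, on the log2 scale and with the CharmeWT mean at 0, Myl4 was at 0.98 and 1.52 in CharmeKO pools 1 and 2, above the CharmeWT range of -0.17 to 0.14. Myh6 was at -1.27 in CharmeKO pool 1 and at -0.048 in CharmeKO pool 2, where the CharmeWT pools ran from -0.046 to 0.087. On this scale Myh6 was far below the CharmeWT range in CharmeKO pool 1 alone, and CharmeKO pool 2 lay next to the lowest CharmeWT pool. The scale rests on the 20 genes, of which 6 were themselves lower in both CharmeKO pools. The share of Myh6 in Myh6 plus Myh7 does not use them. It was 65.6% in CharmeKO pool 2, against 72.5% to 86.4% in CharmeWT pools. Myh7 was at 0.64 and 0.95 in CharmeKO pools (CharmeWT -0.65 to 0.49), and Myl7 was at 0.42 and 1.46 (CharmeWT -0.67 to 0.45). Myl7 of CharmeKO pool 1 was therefore within the CharmeWT range on this scale. Myl2 was at 0.47 and 0.18 (CharmeWT -0.15 to 0.12), so on this scale both CharmeKO pools were above the CharmeWT range. Exact permutation p-values were 0.1 for Myl4, Myh6 and Myl2 and between 0.2 and 0.9 for the other 4 genes. As 0.1 is the smallest p this test can give, none could pass after adjustment over the 7.

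The light chains of atrial myosin were compared with other genes of the atrium and ventricle. Of 14 atrial genes, 1 passed the test, Bmp10, a growth factor of the developing heart, which rose by a log2 fold change of 1.10 (standard error 0.250, edgeR adjusted p = 0.0821). Of all genes, 1.53% rose. The likelihood ratio test of edgeR, which called 6.27% of all genes, called Bmp10 alone. DESeq2, which called 7.54%, called 3 of the 14: Bmp10 and Nppa, which rose, and Kcnj5, which fell. Both CharmeKO pools were above every CharmeWT pool for 3 of the 14 and below for 2, against 17.8% and 18.2% of all genes. The median log2 fold change was -0.084, beside 0.023 for all genes. The most abundant of them, Nppa, the atrial natriuretic peptide that trabecular muscle also makes at this age, was at 677, 1271 and 1065 FPKM in CharmeWT pools and at 1402 and 2134 FPKM in CharmeKO pools (edgeR adjusted p = 0.199). Sln, the atrial inhibitor of the calcium pump, was at 31.0, 8.58 and 33.3 FPKM in CharmeWT pools and at 35.3 and 57.1 FPKM in CharmeKO pools (edgeR adjusted p = 0.302). CharmeWT pool 2, the lowest in Myl7, was the lowest of the 5 pools for 5 of the 14 atrial genes (Dkk3, Kcnj3, Mybphl, Sln and Stard10, named after their values were seen) and the highest for 1, Kcna5, and it was the highest CharmeWT pool for Nppa and for Myl4. CharmeKO pool 1 was the lowest for 6 (Clu, Gja5, Kcna5, Nr2f1, Nr2f2 and Tbx5) and the highest for 1, Bmp10. CharmeKO pool 2 was the lowest for 1 and the highest for 5. Of 8 ventricular genes other than the myosins, 1 passed, Irx3, a transcription factor, where 0.524% of all genes fell. It fell by 0.99 on the log2 scale (edgeR adjusted p = 0.0955). The likelihood ratio test and DESeq2, which called 6.27% and 7.54% of all genes, each called Irx3 and Irx4, both lower. Both CharmeKO pools were above every CharmeWT pool for 0 of the 8 and below for 3, against 17.8% and 18.2% of all genes. The median log2 fold change of the 8 was -0.32. Pln, the ventricular inhibitor of the calcium pump, was at 1345 to 1732 FPKM in CharmeWT pools and at 1812 and 1117 FPKM in CharmeKO pools. The summed level of the atrial genes was 1229.7 to 1672 CPM in CharmeWT pools and 1719.7 and 2536 CPM in CharmeKO pools, and that of the ventricular genes was 4307 to 5424 CPM and then 5541 and 3519.98 CPM. Nppa was the largest part of the atrial sum, at 12064 to 19449 counts in CharmeWT pools and 17143 and 41229 in CharmeKO pools. The next, Clu, was at 1941 to 3459 and then 1378 and 3399 counts. Most of the ventricular sum was Pln. The part of the share of atrium in each pool in the levels of Myl4 and Myl7 was not tested.

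Myl4 is also made in developing skeletal muscle, and markers of that tissue differed between the CharmeKO and CharmeWT pools. So did the salivary gland gene Bpifa2, at 0 counts in every CharmeWT pool, 2170 in CharmeKO pool 1 and 266768 in CharmeKO pool 2. Of 18 skeletal muscle genes, 11 had enough counts, 4 of these rose (Myl1, Mylpf, Myh8 and Tnnc2) and none fell, where 1.53% and 0.524% of all genes did. Both CharmeKO pools were above every CharmeWT pool for 9 of the 11 and below for 1, against 17.8% and 18.2% of all genes. The summed level of the list, most of it Ckm, which heart muscle also makes, was 2992 to 3854 CPM in CharmeWT pools and 4210.3 and 3758 CPM in CharmeKO pools. Myl1, the fast skeletal essential light chain, was at 14.9, 14.8 and 13.4 FPKM in CharmeWT pools and at 36.9 and 51.5 FPKM in CharmeKO pools (log2 fold change 1.62, edgeR adjusted p = 0.0157). Tnnc2, the fast skeletal troponin C, was at 0, 0 and 0.0632 FPKM in CharmeWT pools and at 0.885 and 6.16 FPKM in CharmeKO pools. Myf5 and Pax7, which define muscle precursors, were at 0 in all 5 pools. Myod1 and Myf6 were at 0 in the CharmeWT pools and in CharmeKO pool 1, and had 2 counts each in CharmeKO pool 2. Myog had 3, 8 and 1 counts in CharmeWT pools and 1 and 11 in CharmeKO pools. Between the CharmeKO pools, 8 of the 11 skeletal genes were higher in pool 2 and 3 (Cacna1s, Ckm and Tnni2) in pool 1. The ratio of pool 2 to pool 1 ran from 0.237 for Cacna1s to 6.96 for Tnnc2, with a median of 2.13 and 1.40 for Myl1, and was 1.07 for Myl4. Without CharmeKO pool 2, the log2 fold change of Myl4 was 1.15, and without CharmeKO pool 1 it was 1.26. The part of skeletal muscle RNA in the level of Myl4 was not tested.

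**Figure D4:**
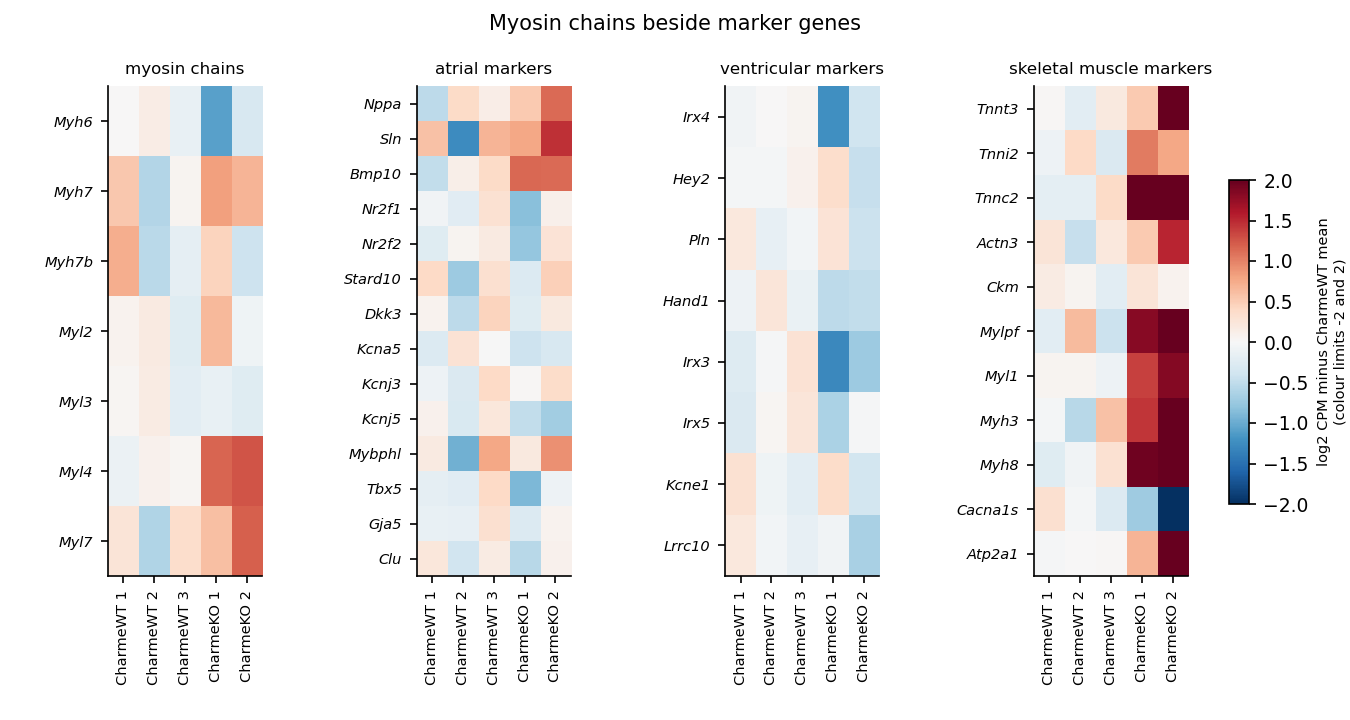
Log2 CPM of the myosin genes and of atrial, ventricular and skeletal muscle genes in each of the 5 pools, minus the mean of the CharmeWT pools, with colours limited to -2 and 2. Myl4 is red in both CharmeKO pools (1.16 and 1.26), as is Bmp10 (1.15 and 1.13), while 8 of the 11 skeletal muscle genes are highest in CharmeKO pool 2.

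The other sarcomeric myosins, of which the table holds skeletal and embryonic forms, were mostly too low to test. Of all genes tested 1.53% rose, and of 10 listed genes 5 were tested and 3 rose. These were Myl1, described above, Mylpf, the fast skeletal regulatory light chain, at 1.28, 2.40 and 1.09 FPKM in CharmeWT pools and 5.53 and 13.3 FPKM in CharmeKO pools (log2 fold change 2.60, edgeR adjusted p = 0.0408), and Myh8, the perinatal skeletal heavy chain, at 0.144 to 0.215 and then 0.685 and 1.91 FPKM (log2 fold change 2.91, edgeR adjusted p = 0.0336). These levels were far under those of the cardiac chains, as Myh8 in its highest pool was at 1.91 FPKM, where Myh7 was at 975. Of 8 myosins of smooth muscle and non-muscle cells, 0 passed edgeR's quasi-likelihood test, where 1.53% of all genes rose and 0.524% fell. In that test 3 of the 8 had an unadjusted p under 0.05, beside 18.6% of all genes. The likelihood ratio test of edgeR and DESeq2 each called 1, Myl6, where they called 6.27% and 7.54% of all genes. Myl9, the regulatory light chain of smooth muscle, was at 329, 820 and 358 FPKM in CharmeWT pools and at 936 and 861 FPKM in CharmeKO pools (edgeR adjusted p = 0.250), with CharmeWT pool 2 close to the CharmeKO pools.

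Partners of cardiac myosin in the thick filament and its assembly did not pass the test, at 0 of 19 genes called by edgeR's quasi-likelihood test. Of all genes, 1.53% rose and 0.524% fell. An unadjusted p under 0.05 was found for 7 of the 19, beside 18.6% of all genes. The likelihood ratio test of edgeR called 4 of the 19 and DESeq2 the same 4 and Csrp3, where they called 6.27% and 7.54% of all genes. Among these 4, Hsp90aa1, a chaperone that folds myosin, rose, and Myo18b, which takes part in the organisation of the sarcomere, fell. Myo18b was at 29.6, 25.5 and 29.7 FPKM in CharmeWT pools and at 15.7 and 18.8 FPKM in CharmeKO pools. Both CharmeKO pools were above every CharmeWT pool for 3 and below for 5, against 17.8% and 18.2% of all genes, and the median log2 fold change was -0.035. Mybpc3, cardiac myosin-binding protein C, was at 734 to 873 FPKM in CharmeWT pools and at 865 and 629 FPKM in CharmeKO pools (edgeR adjusted p = 0.834). Csrp3, a protein of the Z-disc, was at 210 to 291 FPKM in CharmeWT pools and at 542 and 283 FPKM in CharmeKO pools, where CharmeKO pool 1 alone stood out (edgeR adjusted p = 0.212). Of 15 genes of the kinases, the phosphatase and calmodulin that set regulatory light chain phosphorylation, 14 were tested. Of these, 0 were called by edgeR's quasi-likelihood test and 4 had an unadjusted p under 0.05, beside the same 18.6% of all genes. The likelihood ratio test of edgeR and DESeq2 each called 1, the calmodulin gene Calm2, beside the same 6.27% and 7.54%. Of the 14, 2 lay above and 2 below every CharmeWT pool in both CharmeKO pools, against 17.8% and 18.2% of all genes. The median log2 fold change was 0.058. Mylk3, the cardiac myosin light chain kinase, was at 128, 120 and 144 FPKM in CharmeWT pools and at 104 and 89.1 FPKM in CharmeKO pools, both below all CharmeWT pools (log2 fold change -0.44, edgeR adjusted p = 0.256).

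Of 33 genes known to act on cardiac myosin genes, 32 were tested, 1 rose and 1 fell, where 1.53% and 0.524% of all genes did. Both CharmeKO pools were above every CharmeWT pool for 2 and below for 13, against 17.8% and 18.2% of all genes. The median log2 fold change was -0.30, beside 0.023 for all genes tested. Thra, the thyroid hormone receptor that activates Myh6 and restrains Myh7 in the mouse heart, was at 61.8, 58.9 and 60.3 FPKM in CharmeWT pools and at 30.7 and 34.7 FPKM in CharmeKO pools. The 3 CharmeWT pools were nearly equal and both CharmeKO pools far below them, and Thra fell by 0.88 on the log2 scale (standard error 0.171, edgeR adjusted p = 0.0521). Dio2, the enzyme that turns thyroxine into the active hormone, was at 0.884, 0.885 and 0.634 FPKM in CharmeWT pools and at 1.78 and 2.44 FPKM in CharmeKO pools, and rose by 1.40 on the log2 scale (standard error 0.277, edgeR adjusted p = 0.0559). The transcription factor Nkx2-5 was at 102 to 125 FPKM in CharmeWT pools and at 70.0 and 94.0 FPKM in CharmeKO pools (edgeR adjusted p = 0.270), and the level of Srf was 61.2 to 63.4 FPKM and then 57.6 and 66.9 FPKM (edgeR adjusted p = 0.989). Without CharmeKO pool 1, 2 of the 32 rose and 2 fell, where 3.06% and 1.27% of all genes did. Without CharmeKO pool 2, 2 rose and 11 fell, where 16.1% and 15.6% of all genes did. Thra is not a member of the myosin family, and any part of its level in those of Myh6 and Myh7 was not tested.

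Mhrt (chr14:54968678-54974349, plus strand), a noncoding RNA antisense to the end of Myh7, had 205, 165 and 166 counts in CharmeWT pools and 116 and 264 in CharmeKO pools. The counts were made by strand, which is meant to keep fragments of Mhrt and Myh7 apart. How fully it did so was not measured, and Myh7 had 61611 to 187675 counts in these pools. Its level was 6.91 to 8.19 FPKM in CharmeWT pools and 6.76 and 9.74 FPKM in CharmeKO pools, which lay on both sides of them (log2 fold change 0.13, edgeR adjusted p = 0.813).

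For each myosin gene, the 3 genes with the most similar course over the 5 pools were picked from 3927 protein-coding genes with a mean of at least 10 FPKM, by the root mean square difference of their log2 CPM after centring each gene on its own mean. Such likeness over 5 pools that share library depth and quality is a description. For Myl3 it was Tnnt1, the slow skeletal troponin T, at a difference of 0.0328, followed by Zswim7 and Samm50, and for Myl2 it was Casq2, the calcium store protein of cardiac muscle, at 0.0476, followed by Glipr2 and Usmg5. For Myh6 these were Rtl8b at 0.0440, Plekhm2 and Rab11b, which were all lowest in CharmeKO pool 1. The nearest genes to the chains that were higher in CharmeKO pools lay farther off. They were Rpl29 at 0.0997, Mt2 and Ssb for Myh7, Cnn1 at 0.162, Hsd17b12 and Rpl30 for Myl4, and Rnase4 at 0.238, Mt2 and Igfbp3 for Myl7. Cnn1, the smooth muscle calponin, was at 8.08, 9.51 and 6.98 FPKM in CharmeWT pools and at 15.8 and 17.9 FPKM in CharmeKO pools (log2 fold change 1.04, edgeR adjusted p = 0.0521). It was the gene called among 8 smooth muscle markers, of which 1 lay above and 3 below every CharmeWT pool, against 17.8% and 18.2% of all genes. Myh7b had its nearest genes in Rnf207 at 0.161, Yipf7 and Mrrf.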

How the data were processed

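The authors prepared stranded poly(A) libraries, trimmed the paired-end reads, aligned them to GRCm38 with STAR (version not given in the sources used here) and counted fragments per Ensembl gene on the reverse strand. The deposited counts are raw whole numbers per gene and pool, with Charme listed by name. STAR's gene counting leaves out fragments that map to several places. A deposited FPKM table, whose decimals are commas, was not used. FPKM were instead computed from the deposited counts with edgeR's rpkm, TMM library sizes and the summed length of all annotated exons in GENCODE M21, to which 49325 of 49671 genes could be matched. The 28 tested genes without a length were given 1000 bases, and the principal transcript's length was an alternative. Without molecular identifiers in the reads, the intervals given cover counting error only.

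The filter kept genes that reached 10 counts in 2 or more pools, and these were fitted for genotype with edgeR 4.0.16 (R 4.3.3, limma 3.58.1), using the quasi-likelihood test without its legacy option, and p-values were adjusted by Benjamini-Hochberg over the 14880 genes. Calls needed a mean FPKM of 1 or more in either genotype and an adjusted p under 0.1. These settings follow the study's methods, except that its likelihood ratio test was an alternative, as was DESeq2 1.42.0. The standard error is the size of the log2 fold change over the square root of F. Shares were compared with exact two-sided permutation tests over 10 assignments (Python 3.11.15, numpy 2.4.6). Scripts were tested on simulated data. The members, gene lists and tests were chosen with earlier results of these data known. Genes were named by a rule, and the text gives values for only some of those selected: the 7 members, from each list the called genes and the 3 with the highest mean FPKM, RNAs of the myosin loci, Charme, and the 3 nearest genes of each member; further genes were named after their values were seen, the salivary Bpifa2 among them. The planned protein sequences are not shown, and a coding stretch and upstream windows are shown in their place.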

Additional observations from a re-analysis of the deposited data

How the results depend on the processing

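With 3 pools against 2, a single library can decide a call. With each pool left out in turn, log2 fold changes ranged from -1.10 to -0.32 for Myh6, 0.44 to 0.99 for Myh7, -0.52 to 0.43 for Myh7b, -0.094 to 0.64 for Myl2, -0.30 to -0.12 for Myl3, 1.15 to 1.26 for Myl4 and 0.54 to 1.13 for Myl7. Without CharmeWT pools 1 to 3 in turn, 0, 1 and 0 of the 7 genes were called. The cause of these shifts was not tested. Across the 12 settings that kept all pools, Myl4 stayed between 1.18 and 1.30 and was called in each, with adjusted p from 1.02e-07 (DESeq2) to 0.0497 (legacy form of edgeR's quasi-likelihood test). Myh7b turned to 0.0014 with upper-quartile normalization and to 0.032 with scaling on heart muscle genes. The likelihood ratio test called 2 members, with Myl7 at 0.87, and DESeq2 called 3, with Myl7 at 0.87 and Myh6 at -0.65. The difference in the Myl4 share of Myl3 and Myl4 was 11.7 percentage points on raw counts and 12.2 with the principal transcript's length, which, like the log2 ratios, was chosen after seeing the data. With each pool left out, share differences ranged from -28.1 to -13.0 percentage points for Myh6, -0.11 to 0.31 for Myh7b, -0.89 to 10.9 for Myl7, 5.51 to 6.78 for Myl4 and 1.28 to 9.87 for both atrial light chains, and from 0.086 to 0.89 for the log2 ratio of light to heavy chains.

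Calls over all genes were 305 with all pools, 933 with edgeR's likelihood ratio test, 1122 with DESeq2, 262 and 221 in the legacy and robust forms, 211 with scaling on heart muscle genes (205 higher and 6 lower), which moved the median log2 fold change of all genes from 0.023 to 0.12, and 111 at an adjusted p under 0.05. They were 2, 187 and 0 without CharmeWT pools 1 to 3. The replicate numbers of the 2 genotypes were not taken as pairs in the main fit. Deviations of same-numbered pools from their genotype's mean correlated at 0.137 and 0.0778. With 2 CharmeKO pools, their deviations mirror each other, so these values cannot decide whether the pools were paired. With the number as a replicate block 210 genes were called, Myl4 was at 1.23 (edgeR adjusted p = 0.0288), Myl7 at 1.07, Myh7 at 0.78, Myh6 at -0.77, Myl3 at -0.30, Myl2 at 0.16 and Myh7b at -0.074, and no other member passed. For the atrial, ventricular and skeletal muscle lists, fits without CharmeKO pool 1 or 2 were alternatives added after seeing the data. Their calls are not given, since 1 CharmeKO pool is left in each. An analysis of the deposited FPKM table was planned and not run.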
